A study of Mus musculus with 6 samples.

Results

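The regions described here are stretches of open chromatin at the 8 genes that encode the main AP-1 transcription factors of the mouse: Jun, Junb, Jund, Fos, Fosb, Fosl1, Fosl2 and Atf3. They were chosen by gene name, as every region whose nearest gene was one of the 8 and whose centre lay within 100 kb of that gene's start site. This gave 40 of the 64217 regions in the authors' deposited table of plastic against 32 kPa. It gave 3 of the 2121 regions listed as higher on 32 kPa than on 0.2 kPa, and 0 of the 2114 listed as higher on plastic than on 0.2 kPa. All 8 genes had at least 1 region. The farthest region inside the window lay 59.3 kb from the start of Fos, and the nearest one left out lay 109 kb from Jun.

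The cells were GFP-positive lung fibroblasts sorted from Col1a1-GFP transgenic mice, in which a collagen I gene promoter drives the reporter. They were cultured for 8 days in medium with serum on collagen I, over silicone (PDMS) of 0.2 kPa, PDMS of 32 kPa or tissue-culture plastic, and the DNA left accessible to a cutting transposase was read by Omni-ATAC-seq from 50000 cells per library. Each of the 3 cultures had 2 libraries. The values are the authors' means per culture in log2 normalised reads, so the spread between libraries and the depth are unknown, and nothing in the labels says whether libraries of 1 culture came from different mice. A mean over many cells cannot separate more cells with a region open from a region more open in each cell.

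As a check of the cell type, 11 of 12 fibroblast markers had an open region within 1000 bases of their start, at 2.97 to 8.93 on plastic and 3.76 to 8.82 on 32 kPa, and Lum had none. No such region was present at any of 7 epithelial markers, among them Epcam and Sftpc, or of 5 leukocyte markers, among them Ptprc. Of 5 endothelial markers, Kdr and Tek had a weak one, at 3.02 to 3.71 on plastic and 3.08 to 3.13 on 32 kPa, and of 5 mesothelial and smooth muscle markers only Myh11 had one, at 5.45 on plastic and 5.25 on 32 kPa.

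AP-1 is a pair of basic leucine zipper proteins, usually a Jun protein with a Fos protein or with another Jun protein, that binds short palindromic DNA sites. Most of its genes are immediate-early genes, switched on within minutes by serum, growth factors, stress or stretch through MAP kinases that act on factors already bound at their promoters, and Jun and Fos are also controlled by the AP-1 and CREB/ATF families themselves. In fibroblasts AP-1 is known for control of proliferation and of matrix protease genes, and Fosl2 (Fra-2) is known for fibrosis when overexpressed in mice.

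The sequences of the start-proximal promoters are shown first, because 4 of them lay at least in part inside an open region. They are the 250 bases before the RefSeq start of each gene (build GRCm38.p6, the assembly that mm10 names), 5′ to 3′ on the gene's strand. Capitals mark the core of the cyclic AMP response element (TGACG or its reverse complement CGTCA) and, in Jun, the element TGACATCA, which is known as a site for Jun and Atf2. The Jun window (chr4:95052223-95052472, minus strand) was open over all 250 bases, the Atf3 window (chr1:191183334-191183583, minus strand) over all 250, the Junb window (chr8:84978749-84978998, minus strand) over the 172 nearest the start and the Fos window (chr12:85473640-85473889, plus strand) over the 101 nearest the start.
Jun: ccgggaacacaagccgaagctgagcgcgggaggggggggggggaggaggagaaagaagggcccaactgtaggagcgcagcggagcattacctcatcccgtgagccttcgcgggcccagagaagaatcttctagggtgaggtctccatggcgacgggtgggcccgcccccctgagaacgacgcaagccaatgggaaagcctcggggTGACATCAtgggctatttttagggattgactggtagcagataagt
Fos: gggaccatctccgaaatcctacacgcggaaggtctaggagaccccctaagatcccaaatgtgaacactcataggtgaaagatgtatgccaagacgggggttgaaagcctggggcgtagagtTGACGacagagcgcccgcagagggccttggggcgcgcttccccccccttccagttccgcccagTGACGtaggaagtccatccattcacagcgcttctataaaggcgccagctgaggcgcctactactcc
Junb: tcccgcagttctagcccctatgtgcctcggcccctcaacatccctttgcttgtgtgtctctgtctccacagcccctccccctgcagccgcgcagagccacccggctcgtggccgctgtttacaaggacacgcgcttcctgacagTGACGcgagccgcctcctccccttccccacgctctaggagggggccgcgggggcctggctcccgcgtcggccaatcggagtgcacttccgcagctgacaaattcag
Atf3: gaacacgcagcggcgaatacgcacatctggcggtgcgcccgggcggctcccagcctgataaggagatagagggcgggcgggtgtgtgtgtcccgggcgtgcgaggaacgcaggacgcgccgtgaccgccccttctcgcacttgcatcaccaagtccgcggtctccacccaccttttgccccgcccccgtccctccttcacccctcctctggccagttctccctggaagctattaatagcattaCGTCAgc

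The marked element began 45 bases before the start in Jun, 106 in Junb and 7 in Atf3, each inside the open region. In Fos the core 66 bases before the start lay inside the open region and the one at 129 bases lay outside it. This core was present in 4 of the 7 genes with a sequence in the RefSeq table (Fos, Fosb, Junb and Atf3), and in 17.8% of all 32851 promoter windows of this length. The element TGACATCA or its reverse complement was present in 2.93% of all windows. Both the core and this element were searched after the sequences had been read. The core contains CG, and the windows holding it were 58.4 to 68.8% G and C, against a median of 52.4% for all promoters. Those without it were at 64.4% (Fosl2), 61.2% (Jun) and 47.6% (Jund). The part of base composition in these shares was not tested. None of the 7 windows held the full AP-1 site TGAGTCA or TGACTCA (4.46% of all windows), the full element TGACGTCA, which contains the core on both strands (1.55%), the CArG box bound by SRF (1.47%), the ETS site CCGGAAG or CTTCCGG (6.91%) or the TEAD site GCATTCC or GGAATGC (2.87%). Both strands were searched for each. A longer window of the same promoters gave the same counts of genes. There the core was in 4 genes (20.8% of all promoters), TGACATCA in 1 (3.62%) and the other motifs in none. No motif was searched outside these promoter windows, so a site farther upstream would be missed. The open Fos promoter region centred 0.339 kb upstream, for example, lay outside the 250-base window. For Fosb, Fosl2 and Jund no open region reached into the window, the nearest region of the gene starting 14, 169 and 950 bases away from it.

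The open regions of the 8 genes lay mostly between genes, at promoters and at CpG islands. Promoters held 7 of the 40 regions (17.5%, against 19.6% of all regions) and CpG islands outside promoters held 6 (15.0%, against 2.54%). Introns outside CpG islands held 0, against 35.5% of all regions, and intergenic DNA outside CpG islands held 23 (57.5%, against 37.4%). The shares for all regions had no limit on distance to a start site, unlike those for the AP-1 regions. Gene length and intron content were not matched either, and their part in these contrasts was not tested. Jun had 12 regions, Fos 10, Fosb 7, Junb 4, Fosl2, Jund and Atf3 2 each, and Fosl1 1.

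**Figure D1:**
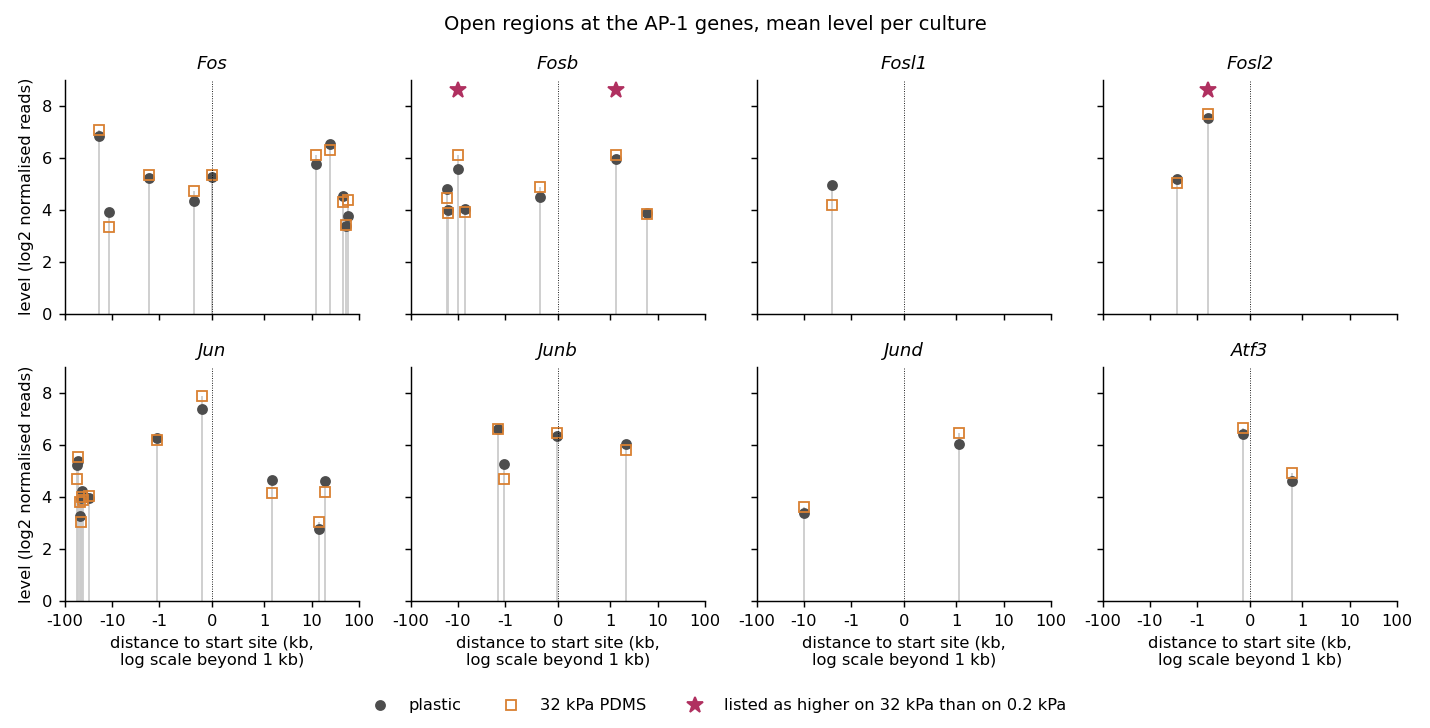
Mean level of each open region (vertical axis, log2 normalised reads) against the distance of its centre to the start site (horizontal axis, kb, linear within 1 kb and logarithmic beyond), for plastic (filled circles) and 32 kPa PDMS (open squares) at the 8 AP-1 genes. Stars mark the 3 regions listed as higher on 32 kPa than on 0.2 kPa, 2 at Fosb and 1 at Fosl2; the highest levels are at the Jun and Fosl2 promoters, and Fosl1 has a single region.

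Of the Jun proteins, Jun is the strongest activator. Its promoter region (chromosome 4, 95052092 to 95052738) was the highest of the 40 on 32 kPa, at 7.37 on plastic and 7.88 on 32 kPa, the authors' means of 2 libraries. Per length this was 8.00 log2 normalised reads per kb on plastic and 8.51 on 32 kPa, above 86.5% of the 12568 promoter regions on plastic and 96.2% on 32 kPa. A separate region 1.1 kb upstream stood at 6.26 on plastic and 6.19 on 32 kPa. The other 10 regions of Jun reached at most 5.39 on plastic and 5.53 on 32 kPa, 7 of them in a group 30.3 to 53.9 kb upstream. Those distal regions were thus far below the promoter on both cultures.

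Junb, which can oppose Jun on some promoters, was open at both ends of its short gene. Its promoter region (chromosome 8, 84978601 to 84978920) stood at 6.33 on plastic and 6.46 on 32 kPa, and a region 1.41 kb upstream at 6.62 on plastic and 6.60 on 32 kPa. The region at its transcript end stood at 6.02 on plastic and 5.80 on 32 kPa. Jund, which is made constantly in most cells, had 1 strong region, annotated as its 5′ UTR (chromosome 8, 70698688 to 70699067), at 6.04 on plastic and 6.44 on 32 kPa. Its other region, 9.91 kb upstream, stood at 3.37 on plastic and 3.62 on 32 kPa.

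Of the Fos proteins, which pair with Jun proteins, Fos had a modest level at its own start. Its promoter region (chromosome 12, 85473789 to 85474004) stood at 5.26 on plastic and 5.34 on 32 kPa. By level, without regard to length, this was above 49.3% of promoter regions on plastic and 51.6% on 32 kPa. Per kb, the measure used for Jun above, it was above 63.2% on plastic and 67.1% on 32 kPa. By level the Jun promoter was above 97.0% on plastic and 99.0% on 32 kPa. A second, shorter promoter region centred 0.339 kb upstream stood at 4.35 on plastic and 4.71 on 32 kPa. Higher levels lay outside the gene, at a CpG island 18.6 kb upstream (6.83 on plastic and 7.07 on 32 kPa) and at a 602-base region 23.9 kb downstream of the start (6.52 on plastic and 6.31 on 32 kPa). A further CpG island 12.2 kb downstream stood at 5.75 on plastic and 6.09 on 32 kPa. The strongest regions nearest Fos were therefore not annotated as promoter, unlike those of Jun, Fosl2 and Atf3. The Fosl2 region was centred 799 bases upstream and did not reach the 250 bases before the start.

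Fosb, an inducible relative of Fos, had its highest level in a CpG island in intron 1 (5.97 on plastic and 6.11 on 32 kPa), followed by a CpG island 10.1 kb upstream (5.57 on plastic and 6.09 on 32 kPa). Its promoter region was lower, at 4.49 on plastic and 4.89 on 32 kPa. Fosl2 had a wide promoter region of 760 bases (chromosome 5, 32135294 to 32136053), at 7.51 on plastic and 7.67 on 32 kPa, and a region 2.7 kb upstream at 5.18 on plastic and 5.01 on 32 kPa. Fosl1 (Fra-1) had 1 region, 2.57 kb upstream, at 4.97 on plastic and 4.18 on 32 kPa. Atf3, a stress-induced factor that represses transcription when paired with itself, had a promoter region (chromosome 1, 191183238 to 191183672) at 6.42 on plastic and 6.63 on 32 kPa and a CpG island in an intron at 4.61 on plastic and 4.93 on 32 kPa.

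The strongest region of each gene was the one with the highest mean level over plastic and 32 kPa. Ordered by its log2 normalised reads per kb on 32 kPa, the genes ran Jun (8.51), Fosl2 (8.07), Fos (8.05), Fosb (7.92), Junb and Jund (7.84 each), Atf3 (7.83) and Fosl1 (6.42). On plastic the corresponding regions stood at 8.00 for Jun, 7.91 for Fosl2, 7.86 for Junb, 7.81 for Fos, 7.78 for Fosb, 7.62 for Atf3, 7.44 for Jund and 7.21 for Fosl1. Among these regions, 1 per gene, Jun was first and Fosl1 last on both cultures. The region 1.1 kb upstream of Jun, at 8.28 per kb on plastic and 8.21 on 32 kPa, was above the Jun promoter on plastic and below it on 32 kPa. So were a Junb region 1.06 kb upstream (8.22 on plastic and 7.61 on 32 kPa) and a Jun exon region (8.14 and 7.62). The Junb promoter, at 7.97 on plastic and 8.10 on 32 kPa, was above the Junb region ranked here. Whether neighbours in these orders differ beyond the spread between libraries cannot be told from means.

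Fibroblasts on 32 kPa had 3 AP-1 regions more accessible than fibroblasts on 0.2 kPa, at Fosl2 and Fosb. The Fosl2 promoter region and both CpG islands of Fosb each held about double the reads. No region of Jun, Junb, Jund, Fos, Fosl1 or Atf3 was listed. At the Fosl2 promoter the level was 7.67 on 32 kPa and 6.61 on 0.2 kPa in the authors' deposited table, a rise of 1.06 on the log2 scale, or 2.08-fold (DiffBind FDR = 0.000888, adjusted over all regions the authors tested). By FDR this was the 45th of the 2121 listed regions, and its level on 32 kPa was above 97.4% of them, while its fold was above 28.7% of them in the authors' deposited table. At Fosb the intron 1 island (chromosome 7, 19308575 to 19308860) stood at 6.11 on 32 kPa and 5.04 on 0.2 kPa in the authors' deposited table, a rise of 1.07 or 2.10-fold (DiffBind FDR = 0.0175). The island 10.1 kb upstream (chromosome 7, 19320013 to 19320287) stood at 6.09 on 32 kPa and 5.05 on 0.2 kPa in the authors' deposited table, a rise of 1.03 or 2.04-fold (DiffBind FDR = 0.0339). The median fold over all listed regions was 1.12, so the AP-1 folds were below the middle of that list.

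Listing needed both a DiffBind FDR of at most 0.05 and a log2 fold of at least 1, and no listed region was below 4.97 on 32 kPa. All 2121 regions of this list, and all 2114 on plastic, were higher on the stiffer culture, as that rule requires. The direction of the 3 AP-1 regions was therefore fixed by the listing. Whether any region was higher on 0.2 kPa cannot be told from these lists. Of the 40 AP-1 regions, 17 in 7 genes reached 4.97 on 32 kPa. Of those 17, 3 (17.6%) were listed, against 12.4% of all 17026 regions that reached it. Over the whole table, at any level, 3.3% of regions were listed. By gene, 2 of 8 had a listed region, against 10.0% of all genes with a region within 100 kb. With 1 listed region fewer, the share by region would have been below the background. The Jun promoter, at 7.88 on 32 kPa the strongest region, and the promoters of Junb, Atf3 and Fos were high enough to be listed and were not. For the 14 that were not listed the authors' deposited table gives no level on 0.2 kPa, so their differences are unknown. The Fosl1 region, at 4.18 on 32 kPa, was below the lowest level seen among listed regions, 4.97, and its level on 0.2 kPa is also unknown.

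**Figure D2:**
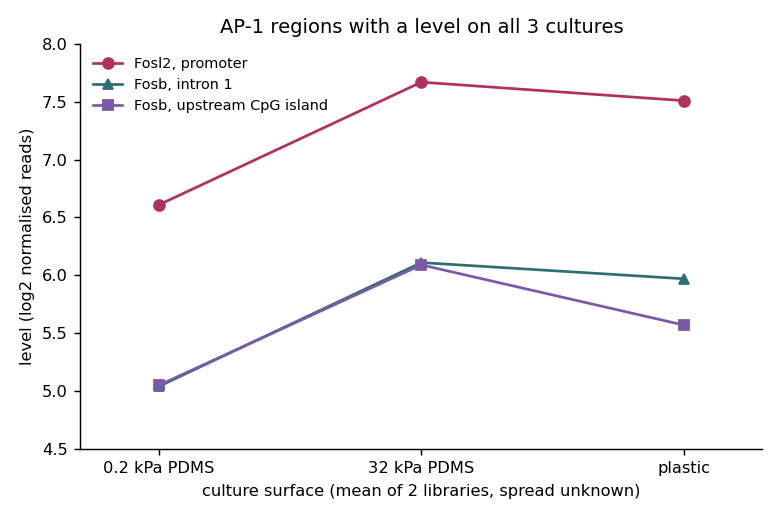
Mean level (vertical axis, log2 normalised reads) of the 3 AP-1 regions that have a level on all cultures, on 0.2 kPa PDMS, 32 kPa PDMS and plastic (horizontal axis); each point is the authors' mean of 2 libraries with no known spread. All 3 are lowest on 0.2 kPa and highest on 32 kPa, an order that their listing for 32 kPa over 0.2 kPa favours. The plastic level of the Fosb island 10.1 kb upstream, 5.57, lies midway.

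On plastic no AP-1 region was listed as higher than on 0.2 kPa. Of the 40 regions, 20 in all 8 genes reached the lowest listed level on plastic, 4.94, and 0 of the 20 were listed at a DiffBind FDR of 0.05, against 11.7% of all 18002 regions that reached it and 3.27% of the whole table at any level. By gene the count was 0 of 8, against 9.39% of all genes. Unadjusted p-values of unlisted regions are not in the authors' deposited table, so how many would pass an unadjusted p of 0.05 is unknown. For the regions listed on 32 kPa the levels on all cultures can be set side by side, across separate deposited tables of unknown scaling. Fosl2 stood at 6.61 on 0.2 kPa, 7.67 on 32 kPa and 7.51 on plastic, the Fosb intron at 5.04, 6.11 and 5.97 in the same order, and the Fosb upstream island at 5.05, 6.09 and 5.57. Plastic thus exceeded 0.2 kPa by 0.90, 0.93 and 0.52, all short of the fold of 1 needed for listing. The 0.2 kPa and 32 kPa levels both took part in choosing the regions, which favours low values on 0.2 kPa and high values on 32 kPa. The 0.2 kPa level of regions in both lists differed between the tables by a median of -0.01 (nearly all between -0.17 and 0.13). Both comparisons use the same 0.2 kPa libraries. Whether the response of Fosl2 and Fosb differed between 32 kPa and plastic is addressed only by the direct comparison that follows. That comparison uses the same 32 kPa means that took part in choosing these regions.

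Between plastic and 32 kPa no AP-1 region passed the authors' test, and no region in the genome did. DiffBind called 0 of 64217 regions at an FDR of 0.05 (0.0%), and every FDR was 1. At an unadjusted p under 0.05 there were 370 regions (0.576%), 125 of them lower on plastic (0.195%), and 1 of the 125 was among the 40 AP-1 regions. That region was the Jun promoter. Its level was 0.51 lower on plastic than on 32 kPa in the authors' deposited table, or 0.702 times that on 32 kPa (unadjusted p = 0.0193, FDR = 1). It was 65th of all regions by p, and of 281 other promoter regions within 0.25 of its mean level, 0 had a lower fold. The Jun promoter was singled out by this p, so its rank and fold are not separate support. It did not pass adjustment.

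The AP-1 promoters and CpG islands all had a lower mean on plastic than on 32 kPa, by small amounts. This held at 7 of 7 promoter regions (median -0.21, range -0.51 to -0.08), against 50.7% of all promoter regions (median -0.01). It held at 6 of 6 CpG islands outside promoters (median -0.28, range -0.51 to -0.12), against 45.3% of such islands (median 0.04). Of the other 27 AP-1 regions 8 were lower on plastic and 19 higher (median 0.17), against 42.2% lower among all other regions (median 0.07). Over all 40, 21 were lower on plastic, against 43.9% of the whole table, and the median was -0.05, against 0.05. None of these regions passed the test alone, regions of 1 gene share their neighbourhood, and the pattern was noticed after the values were seen. Level moved with the fold, since 59.8% of all regions at a mean level of at least 6 were lower on plastic, against 41.1% of those under 5, and its part in the pattern was not tested. Within 0.25 of each promoter's own level, the median fold of other promoter regions was between -0.10 and 0.06. The share of them with a lower fold was 0.0% for Jun, 7.2% for Fosb, 9.5% and 34.6% for Fos, 15.4% for Atf3, 27.6% for Junb and 31.5% for Fosl2.

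By member, the promoter difference of plastic minus 32 kPa in the authors' deposited table was -0.51 at Jun, -0.14 at Junb, -0.08 and -0.37 at the 2 promoter regions of Fos, -0.40 at Fosb, -0.16 at Fosl2 and -0.21 at Atf3. Jund, with no region annotated as promoter, was 0.40 lower on plastic at its 5′ UTR region. The largest positive differences in the authors' deposited table were 0.90 at a region 46.2 kb upstream of Jun (3.95 on plastic and 3.05 on 32 kPa) and 0.79 at the Fosl1 region, 2.57 kb upstream. For Fosb the largest was -0.51, at the island 10.1 kb upstream, and for Fos -0.64, 59.3 kb downstream of the start. At Fosl2 it was 0.17, at the region 2.7 kb upstream, at Junb 0.62, 1.06 kb upstream, and at Atf3 -0.32, in an intron.

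**Figure D3:**
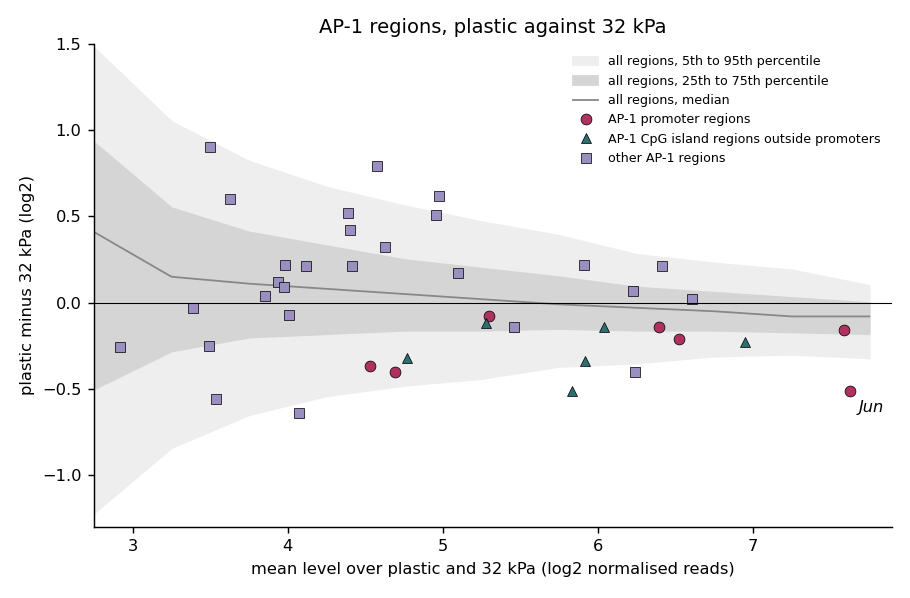
Difference in mean level, plastic minus 32 kPa (vertical axis, log2), against the mean of both levels (horizontal axis, log2 normalised reads) for the 40 AP-1 regions, by promoter, CpG island outside promoters and other location; grey bands and line give percentiles and median of all 64217 regions in steps of level. All AP-1 promoters and islands lie below 0, the other AP-1 regions on both sides of it, and the Jun promoter at -0.51 lies below the band.

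Genes that work with AP-1 are described by 5 lists, each by its count of genes with a region listed as higher than on 0.2 kPa. Of the other basic leucine zipper genes, 8 of 23 with a region had a listed one on 32 kPa (34.8%, against 10.0% of all genes). By region, 8 of the 38 high enough were listed (21.1%, against 12.4%). Atf2, a partner of Jun, rose by 1.10 at its promoter, Creb1 by 1.13 and Crem by 1.07, all activators or modulators at cyclic AMP response elements, in the authors' deposited table (DiffBind FDR = 0.0025, 0.00401 and 0.000818). Jdp2, which represses AP-1, rose by 1.08 at its promoter, and the stress-response factors Nfe2l1 by 1.25 and Nfe2l2 by 1.01 at theirs, per the authors' deposited table. Bach1, a repressor of antioxidant genes, rose by 1.14 at 85.0 kb and Creb5 by 1.47 in an intron 50.3 kb from its start, per the authors' deposited table. On plastic 6 of 23 had a listed region (26.1%, against 9.39%), by region 6 of 35 high enough (17.1%, against 11.7%). The Crem promoter rose by 1.08 (8.02 on plastic and 6.94 on 0.2 kPa, DiffBind FDR = 3.81e-06), an Atf1 intron by 1.36, and the promoters of Maf, Mafa and Mafg by 1.23, 1.03 and 1.23, per the authors' deposited table.

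Of the MAP kinase cascade upstream of AP-1, 6 of 26 genes had a listed region on 32 kPa (23.1%, against 10.0%). The promoters of Mapk8, which encodes the Jun kinase JNK1, Mapk14 (p38 alpha) and Braf rose by 1.19, 1.03 and 1.12, and regions nearest Map2k6 and Rps6ka1 by 1.14 and 1.02, per the authors' deposited table. On plastic 4 of 26 did (15.4%, against 9.39%), among them Mapk8 at 1.17, Map2k6 at 1.12 and Mapk3, which encodes ERK1, at 1.09, all folds of the authors' deposited table. Of 15 MAP kinase phosphatase and feedback genes, 2 had a listed region on 32 kPa (13.3%, against 10.0%). They were Spry2 at its promoter (1.06) and Spry4 at 33.8 kb (1.34), in the authors' deposited table. On plastic 1 did (6.67%, against 9.39%), Dusp1 at 21.0 kb (1.19), in the authors' deposited table. By region the cascade had 6 of 36 high enough listed on 32 kPa (16.7%) and the phosphatase list 2 of 25 (8.0%), against 12.4%. On plastic the cascade had 4 of 35 (11.4%) and the phosphatase list 1 of 26 (3.85%), against 11.7%.

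Of 21 serum response and immediate-early regulators, 5 had a listed region on 32 kPa (23.8%, against 10.0% of all genes). By region the share was 5 of 45 high enough (11.1%, against 12.4%). The 5 genes were Elk1, a serum response cofactor (promoter, 1.05), Ier5 (promoter, 1.0), Ier2 (27.9 kb from its start, 1.05), Nr4a1 (20.4 kb upstream, 1.10) and Zfp36 (2.07 kb upstream, 1.02) in the authors' deposited table. On plastic 3 had one (14.3%, against 9.39% of all genes), by region 3 of 54 high enough (5.56%, against 11.7%), namely Ier2 (promoter, 1.07) and the actin-sensing SRF cofactors Mrtfa (1.33) and Mrtfb (1.54), as folds of the authors' deposited table. Of 31 genes known as AP-1 targets with a region, 5 had a listed one on 32 kPa (16.1%, against 10.0% of all genes). On plastic 4 had one (12.9%, against 9.39%). The listed regions on 32 kPa were those of the matrix protease Mmp14 (promoter, 1.13), Tgfb1 (intron, 1.18), Fgf7 (1.45), Lif (1.34) and Hmox1 (1.11 and 1.01 at 2 regions), and on plastic Fgf7 (1.41), Lif (1.26), Ereg (promoter, 1.14) and Krt8 (1.04), in the authors' deposited table. By region the target list was at 12.2% on 32 kPa and 8.0% on plastic, against 12.4% and 11.7%. Shares by gene do not even out the number of regions per gene, and no list was tested as a set.

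**Figure D4:**
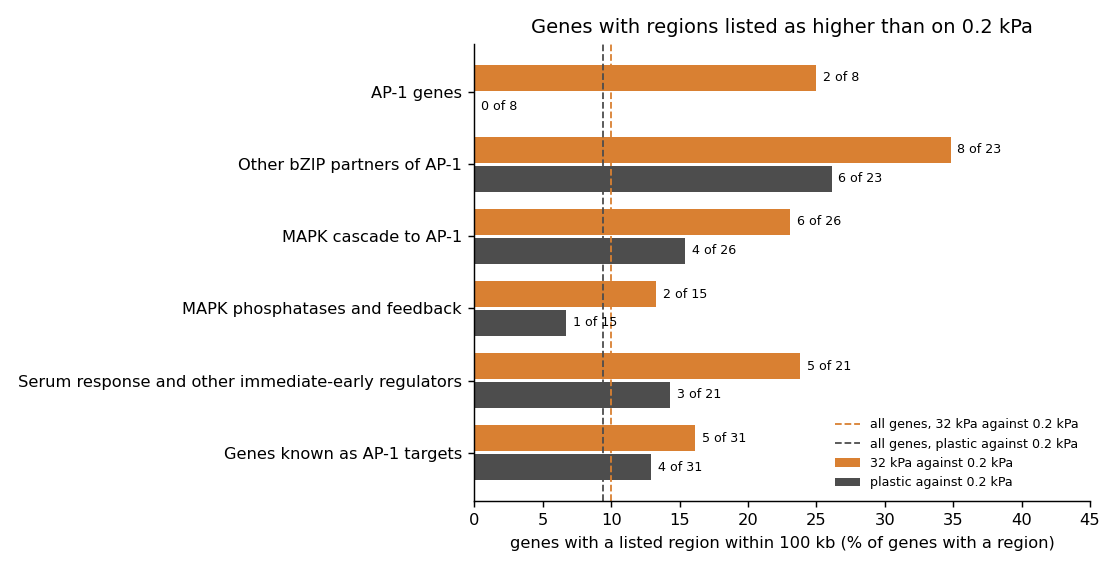
Percentage of genes with at least 1 region within 100 kb that was listed as higher than on 0.2 kPa (horizontal axis), for the AP-1 genes and 5 lists of related genes (rows), on 32 kPa (orange, upper bar) and on plastic (grey, lower bar); dashed lines give all genes, 10.0% and 9.39%. The AP-1 genes stand at 2 of 8 on 32 kPa and 0 of 8 on plastic, and the other basic leucine zipper genes have the longest bars on both cultures. Shares by gene do not even out the number of regions per gene. By region on 32 kPa, against 12.4%, the leucine zipper (21.1%) and cascade (16.7%) lists were above. The phosphatase (8.0%), serum response (11.1%) and target (12.2%) lists were below.

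The levels of the Fosl2 promoter region over the 3 cultures were compared with those of 1921 listed regions within 1000 bases of a start site. The nearest by Euclidean distance in log2 units were the promoters of Kmt2b (0.037), Prmt1 (0.062), Far1 (0.065), Polg (0.091) and Trib1 (0.091). Kmt2b, a histone methyltransferase gene, stood at 6.60 on 0.2 kPa, 7.64 on 32 kPa and 7.53 on plastic. The closeness rests on 3 means and was bound to be high, since all of these regions were listed for a fold of at least 1.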

How the data were processed

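Omni-ATAC-seq libraries of 3 cultures, 2 each, are represented by 3 tables of regions. Per the submitters' processing notes BWA, Picard, MACS2 and DiffBind were used on mm10; versions, settings, transposase shift, peak merging and scaling are not given in the sources used here. Deposited levels and folds are in log2, and so each p-value and FDR was taken as the authors deposited it; gene names and distances were used as given, per the file headers. The sides called Control and Treat were identified as stiffer culture and 0.2 kPa because Control equalled the named 32 kPa level at 671 shared intervals (difference 0) and the plastic level at 686 (0 to 0.02). Levels are means, so no test, interval or depth could be computed. Regions were matched between tables at 50% of both lengths (2117 of 2121 and 2102 of 2114 listed regions). At 35 listed regions the gene was renamed by its Entrez ID to the name used in the whole table. A repeated header row (1) was dropped. Named were all 8 genes, each with its promoter region, strongest region, listed regions and largest difference, and the listed genes of the 5 lists, some of which are counted but not reported here by name. Members and lists were chosen with earlier results of these data known. The matching was checked on simulated regions. Python 3.11.15, pandas 2.3.3, numpy 2.4.6 and matplotlib 3.10.9 were used.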

Additional observations from a re-analysis of the deposited data

How the results depend on the processing

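Within 10 kb of the start sites 21 AP-1 regions remained of the 40 in the table of plastic against 32 kPa. With an FDR of 0.01 the regions listed as higher on 32 kPa than on 0.2 kPa numbered 1, the Fosl2 promoter, in place of 3, since both Fosb islands have a higher FDR. Between plastic and 32 kPa, 1 region passed an unadjusted p of 0.05 and 0 an FDR of 0.05. The median difference of plastic minus 32 kPa, -0.05 over all AP-1 regions, was -0.12 within 10 kb, -0.14 and -0.13 for regions no weaker than the weakest listed one on 32 kPa and on plastic, and -0.10 relative to the median of all regions. The counts on plastic against 0.2 kPa stayed at 0 under each alternative run, and taking regions by coordinates (gene body and 10 kb either side), added after seeing the data, gave 29, 3 and 0 regions. No paired analysis was possible because the tables hold 1 mean per culture, and leaving out a library was not run for the same reason. Depth per library is unknown, so weak regions, such as the single one of Fosl1, have no known precision.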

Other observations

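Other genes near the AP-1 genes also had listed regions. Beside Fosl2, regions whose nearest start was that of the phospholipase gene Plb1 lay 34.3 kb from the Fosl2 gene (6.25 on 32 kPa and 5.12 on 0.2 kPa, fold 1.13, DiffBind FDR = 0.0119) and 38.3 kb from it (5.43 on plastic and 4.07 on 0.2 kPa, fold 1.36, DiffBind FDR = 0.0193), in the authors' deposited table. They lie 40.4 and 36.5 kb from the start of Plb1, and were left out because that start was nearer than the start of Fosl2. Within 100 kb of Fosb the promoter of Opa3, a mitochondrial protein gene, was listed on 32 kPa with a fold of 1.10 in the authors' deposited table. Within 100 kb of Fosl1, which had no listed region, the promoter of the sorting nexin gene Snx32 was listed on 32 kPa (fold 1.11) and on plastic (fold 1.37), and that of the endonuclease gene Mus81 on plastic (fold 1.12), in the authors' deposited table. Near Junb the promoters of Gcdh (fold 1.0 on 32 kPa) and Dnase2a (fold 1.09 on plastic) were listed in the authors' deposited table. Within 100 kb of Jun, Fos, Jund and Atf3 no region was listed under another gene's name on either culture.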
